A study of Mus musculus with 12 samples.

Results

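The genes described here are *Prlr*, *Ghr* and *Fshr*, which encode the receptors for prolactin, growth hormone and follicle-stimulating hormone (FSH), together with *Igf1*, *Igf1r*, *Insr*, *Irs1* and *Irs2*, which encode insulin-like growth factor 1, the IGF1 and insulin receptors and their adaptors. These 8 genes of the 35976 gene symbols counted were found by symbol in all 12 libraries. They were chosen by name with their levels in these comparisons already known, so their levels and fold changes are given as a description, with no test. RNA was sequenced from testes of Swiss (RjOrl) mouse embryos, an outbred stock, dissected at E15.5. Pregnant mice received the neonicotinoid thiacloprid (*thia*) by gavage at 6 mg/kg/day, or the oil vehicle, from E6.5 to E15.5. F1 embryos were exposed in the womb. F3 embryos were not exposed and descended from treated or vehicle-treated mice through F1 and F2 males mated with untreated females. Each of the 4 groups (F1 control, F1 *thia*, F3 control, F3 *thia*) had 3 pools of testes from 3 embryos, so single embryos cannot be compared, and the testis was not separated into cell types. The litter of each embryo is not stated for each pool.

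Prolactin and growth hormone are pituitary hormones whose receptors, PRLR and GHR, belong to the class I cytokine receptor family and signal through the kinase JAK2 and the STAT5 proteins. FSH acts through FSHR, a G protein-coupled receptor of Sertoli cells that raises cAMP. In many tissues growth hormone induces *Igf1*. IGF1 binds the tyrosine kinase IGF1R, which phosphorylates the adaptors IRS1 and IRS2 and through them activates PI3K, AKT and mTOR, and the insulin receptor uses the same adaptors. In the mouse testis the insulin and IGF receptors act in gonad development and Sertoli cell proliferation, and prolactin receptor is found in Leydig cells, where prolactin acts together with luteinizing hormone.

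The sequences before the transcription starts of *Fshr*, *Prlr* and *Igf1r* are shown because these members had some of the larger F3 fold changes and each window held a match to a motif of a factor of the testis or of prolactin signalling. RefSeq promoters (GRCm38.p6, the same assembly as mm10) were found for the members other than *Insr*, with 3 starts for *Prlr* and 2 for *Ghr*. Gene positions given below are from GENCODE, so a RefSeq start can lie outside them, as for *Igf1r*. Each line holds the 250 bases before a start, 5′ to 3′ on the strand of the gene, with the motif in capitals. The motifs searched on both strands were the E-box CACGTG, its general form CANNTG, the STAT5 half-sites in TTCNNNGAA and the steroidogenic factor 1 motif AAGGTCA. Matches to CANNTG other than CACGTG are not capitalised.
Fshr, chr17:89200676-89200925, minus strand, E-box in capitals: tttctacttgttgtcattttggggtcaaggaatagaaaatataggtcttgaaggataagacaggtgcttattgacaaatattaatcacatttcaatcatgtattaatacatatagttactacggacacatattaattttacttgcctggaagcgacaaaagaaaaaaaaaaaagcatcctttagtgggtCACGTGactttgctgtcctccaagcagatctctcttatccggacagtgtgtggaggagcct
Prlr, second of its starts, chr15:10223656-10223905, plus strand, STAT5-type motif in capitals: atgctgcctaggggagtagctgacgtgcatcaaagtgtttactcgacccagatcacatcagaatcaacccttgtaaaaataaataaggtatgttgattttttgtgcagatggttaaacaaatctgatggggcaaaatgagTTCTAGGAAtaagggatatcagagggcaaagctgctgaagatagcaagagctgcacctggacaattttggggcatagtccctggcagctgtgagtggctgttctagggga
Igf1r, chr7:67952007-67952256, plus strand, reverse complement of the steroidogenic factor 1 motif in capitals: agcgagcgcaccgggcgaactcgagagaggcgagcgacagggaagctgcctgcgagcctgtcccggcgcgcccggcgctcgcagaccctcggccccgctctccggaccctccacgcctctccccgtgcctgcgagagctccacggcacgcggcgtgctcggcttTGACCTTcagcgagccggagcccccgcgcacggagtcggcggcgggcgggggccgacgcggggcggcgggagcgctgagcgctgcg

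The E-box of *Fshr* ended 55 bases before the start, and CACGTG was also found once before *Irs1* and once before *Irs2*. It was present in 6.02% of the 32851 promoters of this table. The general form CANNTG, which takes in CACGTG, was in 66.2% of them, with a further match (CAGGTG) that ended 184 bases before the start of *Fshr* and 3 matches in the *Prlr* window shown. TTCNNNGAA was found at 1 of the 3 *Prlr* starts and in 7.02% of all promoters, and AAGGTCA before *Igf1r* and in 4.08% of all promoters. The windows also differed in base composition, with 36.8% G and C before *Fshr*, 44.8% before this start of *Prlr* and 77.6% before *Igf1r*. A match to these letters is a description and not a binding site, and the counts per gene do not say which *Prlr* start was used.

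The library totals were 25081647 to 68996146 counts. CPM are counts divided by the library total, itself scaled by the TMM factors of edgeR, and 1 CPM stood for 27.4 to 66.1 counts. Members had between 141 counts (*Fshr*) and 11009 counts (*Igf1*) in a library. Marker genes fitted a fetal testis, with 620 to 933 CPM of the Sertoli cell gene *Amh* in F1 and 167 to 513 CPM in F3. The Leydig cell gene *Cyp17a1* was at 861 to 3666 CPM and the germ cell gene *Ddx4* at 56.7 to 253 CPM. None of the genes in the lists of cell type markers was at 0 in all libraries. F3 *thia* replicate 2 stood farthest from the other F3 libraries, and its 7 liver and fat genes summed to 4898 CPM, against 365 to 1604 CPM in the other F3 libraries. F1 *thia* replicate 2 had 585 CPM of 8 skeletal muscle genes, against 41.9 to 107 CPM in the other F1 libraries. The 7 erythroid genes summed to 5123 to 19040 CPM in F1 and 45066 to 82802 CPM in F3, so generation and blood content moved together in these libraries. No pair of replicates agreed within counting noise.

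**Figure D1:**
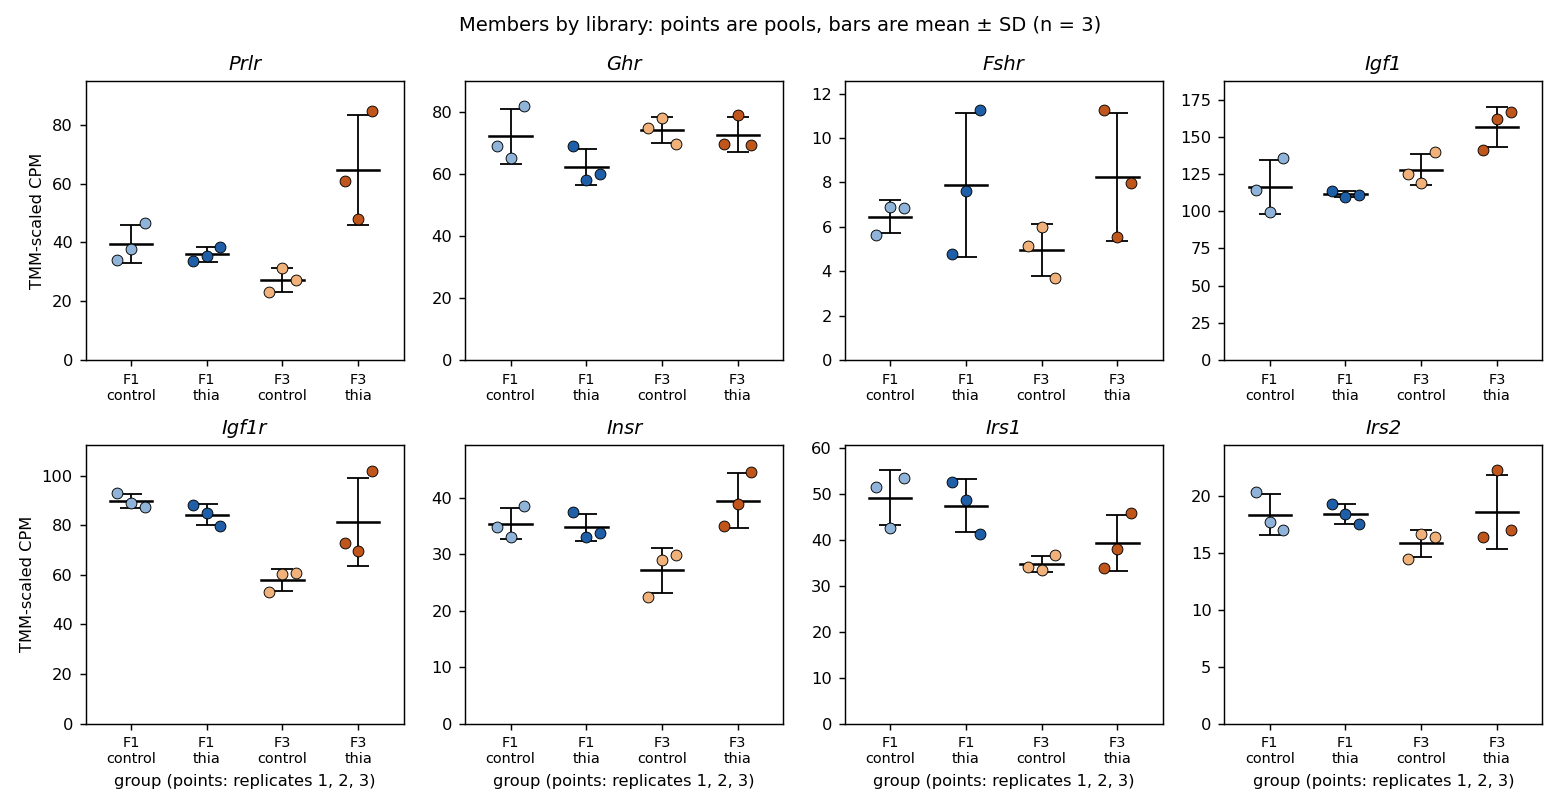
TMM-scaled CPM (y axis) of the 8 members in each of the 12 libraries, by group (x axis), with points for the 3 pools and bars for the mean ± SD. In F3 the *thia* pools of *Prlr* (48.0 to 84.8 CPM), *Igf1*, *Igf1r* and *Insr* lie above all F3 control pools, whereas the F1 groups overlap for every member.

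*Prlr*, on chromosome 15 of mm10 from 10177238 to 10349180, was the member with the largest difference between F3 groups. Its level was 33.9, 37.7 and 46.7 CPM in the F1 control pools and 33.8, 35.3 and 38.5 CPM in the F1 *thia* pools. In F3 it was 23.2, 31.4 and 27.1 CPM in control and 60.9, 48.0 and 84.8 CPM in *thia*. The F1 groups overlapped, and in F3 every *thia* pool was above every control pool and also above every F1 pool. The means were 27.3 ± 4.12 CPM in F3 control and 64.5 ± 18.7 CPM in F3 *thia* (SD, n = 3). This gave a log2 fold change of 1.21 (standard error 0.212) in F3, against -0.12 (standard error 0.131) in F1. The lowest *thia* pool in F3 was replicate 2, and without it the log2 fold change was 1.38.

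*Ghr*, on chromosome 15 from 3317760 to 3583492 on the minus strand, had group means within 1.19-fold of each other. The growth hormone receptor was at 69.1, 65.4 and 82.1 CPM in F1 control and at 69.0, 58.0 and 60.2 CPM in F1 *thia*. In F3 control it was at 74.8, 78.0 and 69.8 CPM, and in F3 *thia* at 69.6, 79.2 and 69.5 CPM. All neighbouring groups in the order of the means overlapped. The log2 fold change was -0.20 (standard error 0.120) in F1 and -0.07 (standard error 0.080) in F3. Across the libraries *Ghr* and *Prlr* had a Pearson r of -0.03 (Spearman rho -0.14, 12 libraries, mean of each generation removed).

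*Fshr*, on chromosome 17 from 88984952 to 89200675 on the minus strand, had the lowest counts of the members. In F1 it was at 5.62, 6.91 and 6.85 CPM in control and at 4.79, 7.60 and 11.3 CPM in *thia*. In F3 it was at 5.15, 6.00 and 3.68 CPM in control and at 11.3, 5.53 and 7.97 CPM in *thia*. Both generations overlapped, and the *thia* pools were more spread than the control pools. The log2 fold change was 0.70 (standard error 0.291) in F3 and 0.30 (standard error 0.258) in F1. Without F3 *thia* replicate 2, the lowest *thia* pool, it was 0.92 in F3, and without F3 *thia* replicate 1, the highest, it was 0.40.

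*Igf1*, on chromosome 10 from 87858265 to 87937042, encodes the ligand and had the highest level per length of the 8 genes. It was at 114, 99.6 and 136 CPM in F1 control and at 114, 110 and 111 CPM in F1 *thia*. In F3 it was at 125, 119 and 140 CPM in control and at 141, 162 and 167 CPM in *thia*. The F1 groups overlapped, and the F3 groups were apart, with 140 CPM in the highest control pool and 141 CPM in the lowest *thia* pool. The log2 fold change was 0.25 (standard error 0.098) in F3 and -0.05 (standard error 0.122) in F1. The antisense gene *Igf1os*, which overlaps *Igf1*, had a mean of 0.0234 CPM.

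*Igf1r*, on chromosome 7 from 67952827 to 68233668, and *Insr*, on chromosome 8 from 3122061 to 3279617, encode the receptor tyrosine kinases. *Igf1r* was at 92.9, 89.1 and 87.4 CPM in F1 control and at 88.1, 85.0 and 79.6 CPM in F1 *thia*. In F3 control it was at 53.0, 60.4 and 60.6 CPM, and in F3 *thia* at 72.8, 69.7 and 102 CPM. F3 control was therefore the lowest group, and the F3 *thia* pools lay on both sides of the F1 pools.

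*Insr* was at 34.9, 33.0 and 38.5 CPM in F1 control and at 37.6, 33.1 and 33.9 CPM in F1 *thia*. In F3 control it was at 22.5, 29.1 and 29.9 CPM, and in F3 *thia* at 35.0, 38.9 and 44.7 CPM. As for *Igf1r*, all F3 control pools were below all pools of the other 3 groups. The log2 fold changes in F3 were 0.45 (standard error 0.151) for *Igf1r* and 0.50 (standard error 0.139) for *Insr*, and in F1 they were -0.08 and -0.01. Across the 12 libraries *Igf1r* and *Insr* had a Pearson r of 0.88 (Spearman rho 0.75), but r was 0.23 within F1 and 0.92 within F3.

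*Irs1*, on chromosome 1 from 82233101 to 82291416, and *Irs2*, on chromosome 8 from 10984681 to 11008458, encode the adaptors below these receptors. *Irs1* was at 51.6, 42.5 and 53.6 CPM in F1 control and at 52.5, 48.7 and 41.2 CPM in F1 *thia*. In F3 it was at 34.0, 33.5 and 36.7 CPM in control and at 34.0, 38.1 and 46.0 CPM in *thia*. It was lower in all F3 control pools than in all F1 pools, and the *thia* and control groups overlapped in both generations.

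*Irs2* was at 20.4, 17.8 and 17.0 CPM in F1 control and at 19.4, 18.4 and 17.6 CPM in F1 *thia*. In F3 it was at 14.5, 16.7 and 16.4 CPM in control and at 16.4, 22.3 and 17.0 CPM in *thia*. Its highest value was in F3 *thia* replicate 2, and the log2 fold change in F3 was 0.19 with that library and 0.04 without it. For *Irs1* the log2 fold change was 0.14 in F3 and -0.04 in F1. Its F3 value was 0.01 without *thia* replicate 3, the highest pool, and 0.22 without *thia* replicate 1, the lowest *thia* pool.

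**Figure D2:**
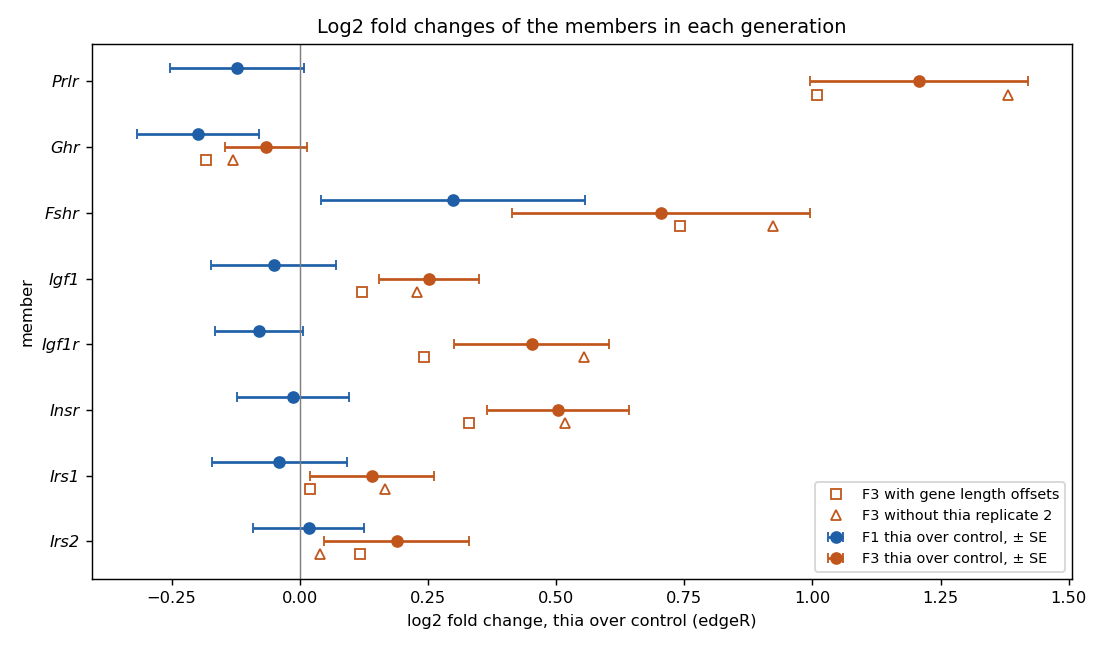
Log2 fold change of *thia* over control (x axis) for each member (y axis), with filled circles for F1 and F3 and bars for ± 1 standard error. Open squares give F3 with gene length offsets and open triangles F3 without *thia* replicate 2. All F1 values lie between -0.20 and 0.30, and *Prlr* stays at or above 1.01 in the F3 values drawn.

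In the fits over all genes with the quasi-likelihood test of edgeR, no member was called in F1 at an FDR of 0.15 and none in F3 at an FDR of 0.1. Nothing is read from these counts, because the genes were chosen with these contrasts known. In F1 0.0105% of the 19137 genes tested were called, and the adjusted p of the members ranged from 0.636 to 0.978 (edgeR). No member had an unadjusted p under 0.05 or was called by DESeq2 there, where the shares of all genes were 8.76% and 1.01%. In F1 no member had groups that did not overlap, against 15.1% of all genes. In F3 0% of the 18539 genes tested were called with edgeR, but the smallest adjusted p of all genes was 0.101, just above the threshold. The members had adjusted p values from 0.105 (*Prlr*) to 0.677 (*Ghr*) in that fit.

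In F3, 5 members had an unadjusted p under 0.05, against 21.1% of all genes, and 4 had groups that did not overlap, against 27.3%. DESeq2, the tool of the study, called 4 of the members in F3 (*Prlr*, *Fshr*, *Igf1r* and *Insr*), where it called 14.9% of all genes with an adjusted p. One edgeR fit of the 12 libraries called 3 (*Prlr*, *Igf1r* and *Insr*), against 9.86% of all genes. Without F3 *thia* replicate 2, edgeR called *Prlr*, *Fshr* and *Igf1r*, against 6.82% of all genes. The smallest two-sided p that exact permutation allows for 3 against 3 pools is 0.1.

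The F3 fold change was more positive than the F1 fold change for all 8 members, and the difference (F3 minus F1) was 1.35 (standard error 0.264) for *Prlr*, 0.55 for *Igf1r* and 0.53 for *Insr* on the log2 scale. The edgeR test of this difference called 0 members and 0.0051% of all genes at an FDR of 0.1. At an unadjusted p under 0.05 it held 3 members, beside 14% of all genes, and DESeq2 called *Prlr* and *Igf1r*, beside 4.74% of all genes with an adjusted p. The F3 and F1 control pools differed as well. In F3 control *Prlr* was lower than in F1 control by a log2 difference of -0.49, *Igf1r* by -0.59, *Insr* by -0.35 and *Irs1* by -0.47, and these 4 were called at an FDR of 0.1, where 42.3% of all genes were. Generation and library series cannot be told apart here. The F3 *thia* mean was 0.906 times the F1 control mean for *Igf1r* and 1.11 times for *Insr*.

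Most of the members are long genes. The exons of 6 of the 8 span at least 7132 bases, the longest quintile of the genes tested in F3, where the median log2 fold change over all genes was 0.12 in F3 and -0.06 in F1. In the shortest quintile it was -0.12 in F3 and 0.08 in F1. With the trend of gene length removed in each library, the F3 log2 fold change was 1.01 for *Prlr*, 0.33 for *Insr*, 0.24 for *Igf1r*, 0.12 for *Igf1* and *Irs2*, 0.02 for *Irs1* and -0.18 for *Ghr*, against -0.07 for *Ghr* without these offsets. *Fshr*, whose exons span 2360 bases, was at 0.74. With the same offsets, *Prlr*, *Igf1r*, *Insr* and *Irs1* were not called between the control groups, whereas *Igf1* (0.42) and *Ghr* (0.30) were called higher in F3 control. With upper quartile scaling *Prlr* and *Insr* were not called between the control groups. The part of gene length in the values of the members was not tested.

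Levels of different genes were compared per kilobase of exon, as the mean over the 12 libraries. *Igf1* was highest at 12.9 CPM per kilobase, followed by *Ghr* at 7.77, and *Irs1* and *Igf1r* were both at 4.67. *Fshr*, *Irs2*, *Prlr* and *Insr* lay between 2.49 and 2.92 CPM per kilobase. The order of the lower members depended on the length used. Per kilobase of the longest transcript, *Igf1* was at 18.2 and *Ghr* at 16.9 CPM, *Igf1r* at 6.87 and *Irs1* at 4.67, and *Prlr* (4.22) and *Insr* (3.66) stood above *Fshr* (2.92) and *Irs2* (2.82).

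Cell type markers also differed between the groups. All 8 germ cell genes had lower values in *thia* in both generations. They summed to 999.7 to 1384 CPM in F1 control and 908 to 1047 CPM in F1 *thia*. For 3 of the 8 the F1 groups did not overlap, beside 15.1% of all genes. In F3 the 8 germ cell genes summed to 611 to 902 CPM in control and 427 to 755 CPM in *thia*, and all 8 overlapped. The 8 fetal Leydig cell genes summed to 2300, 3765 and 3444 CPM in F3 control and to 5726, 4120 and 7306 CPM in F3 *thia*. There 7 of the 8 were higher in *thia*, 4 of them in groups that did not overlap, beside 27.3% of all genes in either direction. In F1 the sums were 3269 to 4196 CPM in control and 2762 to 4665 CPM in *thia*. The 6 adrenal genes, another steroid-producing source next to the fetal gonad, summed to 33.4 to 48.7 CPM in F3 control and 53.1 to 114 CPM in F3 *thia*. Of these genes, 3 were higher and 3 lower in F3 *thia*, and all overlapped. In F1 the adrenal sums were 42.1 to 60.0 CPM in control and 26.7 to 38.1 CPM in *thia*, with 4 of the 5 tested genes lower. The 7 endothelial genes summed to 169 to 193 CPM in F3 control and 256 to 309 CPM in F3 *thia*. In bulk tissue, more cells of a type and more RNA per cell cannot be told apart.

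As a percent of the summed Leydig genes, *Prlr* was at 1.01, 0.835 and 0.788 in F3 control and at 1.06, 1.16 and 1.16 in F3 *thia*. The F3 groups were still apart on this scale, but their means differed 1.29-fold, against 2.37-fold for *Prlr* in CPM. In F1 the same percent was 0.819 to 1.43 in control and 0.826 to 1.22 in *thia*, and these ranges took in most of the F3 values. *Prlr* had a Pearson r of 0.88 with *Cyp17a1* (Spearman rho 0.84, 12 libraries, mean of each generation removed), with 0.03 within F1 and 0.96 within F3. A high r was not particular to Leydig genes. With the interstitial mesenchyme gene *Pdgfra* it was 0.89 (0.27 within F1, 0.98 within F3). With *Amh* it was 0.77 (-0.47 within F1, 0.87 within F3) and with *Ddx4* -0.30 (0.54 within F1, -0.47 within F3).

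*Fshr* was related in the same way to 10 Sertoli cell genes. These summed to 1231 to 1565 CPM in F1, 521 to 715 CPM in F3 control and 517 to 976 CPM in F3 *thia*. The sum, which includes *Amh*, was therefore lower in every F3 library than in every F1 library. This did not hold for each gene, since *Sox8* was at 32.7 CPM in F3 *thia* replicate 1 and 31.6 CPM in F1 *thia* replicate 1. *Fshr* was 0.491 ± 0.082 percent of this sum in F1 control, 0.526 ± 0.183 in F1 *thia*, 0.816 ± 0.1002 in F3 control and 1.04 ± 0.210 in F3 *thia* (SD, n = 3). The groups overlapped within each generation. *Amh* in F3 was at 167, 260 and 176 CPM in control and at 423, 192 and 513 CPM in *thia*, with F3 *thia* replicate 2 low for both *Amh* and *Fshr*.

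*Ghr* and *Igf1* were related to 8 genes of the interstitial mesenchyme, which summed to 1306 to 1510 CPM in F3 control and 1511 to 1733 CPM in F3 *thia*. On this scale *Ghr* was at 5.73, 5.17 and 5.13 percent in F3 control and at 4.61, 4.85 and 4.01 percent in F3 *thia*, so its F3 groups did not overlap and were lower in *thia*. *Igf1* was at 9.57, 7.90 and 10.3 percent in F3 control and at 9.35, 9.91 and 9.61 percent in F3 *thia*, and its groups, apart in CPM, overlapped. The part of cell numbers in the values of the members was not tested.

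**Figure D3:**
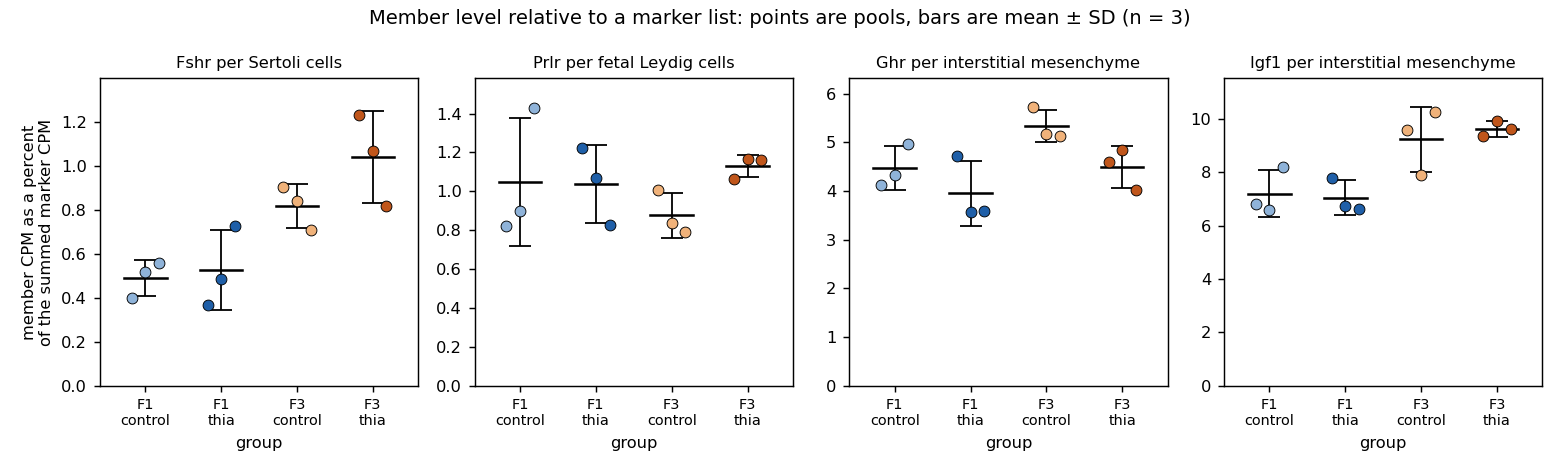
CPM of *Fshr*, *Prlr*, *Ghr* and *Igf1* as a percent of the summed CPM of a marker list (y axis) in each library by group (x axis), with points for pools and bars for the mean ± SD. For *Prlr* the F3 *thia* pools (1.06 to 1.16 percent) lie above the F3 control pools (0.788 to 1.01 percent) by a smaller margin than in CPM.

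The genes with the most similar pattern were ranked among 15393 genes with a mean of at least 1 CPM by the Pearson r of log2 CPM over the 12 libraries, after the mean of each generation was removed. These values share libraries, depth and tissue composition and are a description. For *Prlr* they were *Ptch1*, *Aplp2* and *Gabrb2*, each at 0.97, and 183 genes had an r over 0.9. *Ptch1*, the hedgehog receptor, is a gene of the interstitial mesenchyme list summed above for *Ghr* and *Igf1*. It was at 78.6 to 97.6 CPM in F3 control and 120 to 158 CPM in F3 *thia*. Within F1 its r with *Prlr* was 0.70, and within F3 it was 0.996, and for *Gabrb2* these were 0.95 and 0.98.

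For *Ghr* the similar genes included *BC030336* (0.94) and *Atp7a* (0.94), and 10 genes were over 0.9. For *Igf1* they were *Reck* (0.94), *Lpar1* (0.92) and *Foxn2* (0.92), also with 10 genes over 0.9. For *Fshr* they were *S1pr1* (0.95), *Tmem184a* (0.95) and *Sox8* (0.94), with 24 genes over 0.9. *Sox8*, a Sertoli cell gene of the marker list, was at 36.3, 39.9 and 39.8 CPM in F1 control and 31.6, 41.9 and 47.7 CPM in F1 *thia*, the same order of *thia* pools as *Fshr*. Without F3 *thia* replicate 2 these r values were 0.90 to 0.97.

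The wider pathway was described with a list of 100 genes in 9 roles. It was written from textbook knowledge of these hormones, but with earlier results of these data known, so its counts are a description. In F1, 93 were tested and 0 were called by edgeR. At an unadjusted p under 0.05, 3 were higher and 3 lower, beside 8.76% of all genes. DESeq2 called 1, beside 1.01% of all genes. In F3, 94 were tested and 0 were called by edgeR, with 26 higher and 2 lower at an unadjusted p under 0.05, beside 21.1% of all genes. DESeq2 called 19 higher and 2 lower, beside 14.9% of all genes, and the fit of 12 libraries called 18 higher, beside 9.86%. Without F3 *thia* replicate 2, edgeR called 11 higher, beside 6.82% of all genes. The *thia* and control groups did not overlap for 34 genes that were higher and 4 that were lower in F3, beside 27.3% of all genes. These shares of all genes count both directions. Over all genes the fit of 12 libraries called 1153 higher and 783 lower. Without F3 *thia* replicate 2, 802 were called higher and 492 lower. The median log2 fold change of the list was 0.15 in F3 and 0.02 in F1, beside 0.00 and 0.01 over all genes tested. These medians were not matched for gene length, and the F3 median over all genes was -0.12 in the shortest quintile and 0.12 in the longest.

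The hormones themselves were scarcely measured. *Fshb*, the FSH beta chain, had 0 counts in all 12 libraries, which allows a level of up to 0.109 CPM in the shallowest. *Prl* had 0 to 5 counts and *Cga*, the common alpha chain, 0 to 3 counts. *Gh* was at 0.691 to 2.00 CPM and *Lhb*, the beta chain of luteinizing hormone, at 1.17 to 2.26 CPM. Of the insulin genes, *Ins2* was at 0.219 to 1.48 CPM and *Ins1* had 0 to 29 counts, the most in F3 control replicate 1. *Igf2*, a fetal growth factor that binds both IGF1R and the insulin receptor, was the abundant ligand, at 1117 to 1429 CPM in F1, 1590 to 2023 CPM in F3 control and 1484 to 2332 CPM in F3 *thia*. Its groups overlapped in both generations, and it was called higher in F3 control than in F1 control (log2 difference 0.48, adjusted p = 0.0370, edgeR).

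The other receptors stood on the same side as *Prlr* in F3. All 5 that were tested had *thia* pools above all control pools, beside 27.3% of all genes with groups apart in either direction. None passed edgeR in F3. *Lhcgr*, the receptor for luteinizing hormone and itself a gene of the Leydig list, was at 24.1, 24.7 and 21.2 CPM in F3 control and at 48.7, 42.1 and 91.5 CPM in F3 *thia*. Its log2 fold change was 1.35 (standard error 0.279, adjusted p = 0.105, edgeR), and DESeq2 called it. Among the libraries *Prlr* and *Lhcgr* had a Pearson r of 0.92 (Spearman rho 0.87), with 0.19 within F1 and 0.97 within F3. *Lepr*, the leptin receptor and a further class I cytokine receptor, was at 7.14, 7.06 and 7.88 CPM in F3 control and at 11.7, 10.6 and 12.2 CPM in F3 *thia* (log2 fold change 0.61, adjusted p = 0.105, edgeR). *Insrr*, an orphan relative of the insulin receptor, had log2 fold changes of 0.34 in F1 and 0.79 in F3 with groups apart in both, at 1.15 to 3.86 CPM.

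Among IGF binding proteins and their proteases, 12 of 13 had a positive log2 fold change in F3, with a median of 0.43. The groups did not overlap for 5, beside 27.3% of all genes. *Igfbp7*, a secreted IGF binding-related protein, was at 67.0, 116 and 84.3 CPM in F3 control and at 158, 154 and 239 CPM in F3 *thia* (1.01, adjusted p = 0.108, edgeR). *Htra1*, a protease that cleaves IGF binding proteins, had a log2 fold change of 0.51 (adjusted p = 0.110, edgeR). In F1, 6 of 12 were positive, and the smallest p were those of *Stc2* (-0.52) and *Igfbp6* (0.57), with adjusted p of 0.506 and 0.518 (edgeR).

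The steps inside the cell had smaller values. Of the 7 JAK and STAT genes, 6 were positive in F3 and 4 did not overlap, beside 27.3% of all genes. *Stat5b*, a carrier of prolactin and growth hormone signals, was at 0.39. In F1 *Tyk2* was at -0.17. Of 10 SOCS and phosphatase genes, which restrain these receptors, 7 were positive in F3. *Ptpn2*, a phosphatase of JAK and STAT proteins, had a value of -0.24 and *Socs7* 0.23, and in F1 *Ptpn6* was at 0.23 and *Socs1* at 0.23. Of the other adaptors, *Sh2b2* (0.52) and *Gab2* (0.52) had the smallest p in F3, and in F1 these were *Sh2b2* (0.26) and *Sos1* (-0.17).

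In the PI3K and AKT role, 12 of 16 genes were positive in F3, and the smallest p were those of *Foxo3* (0.38) and *Foxo1* (0.21), transcription factors that AKT keeps out of the nucleus. In F1 10 of the 16 were negative. *Pik3r3*, a regulatory subunit of PI3K, was at 83.6, 122 and 109 CPM in F1 control and at 71.7, 76.0 and 68.1 CPM in F1 *thia* (-0.53, adjusted p = 0.446 with edgeR and 0.0283 with DESeq2). *Gsk3b* was at -0.21 in F1. For mTOR, *Rptor*, the scaffold of complex 1, had a value of 0.33 and *Rheb*, its activator, -0.25 in F3, whereas *Rictor* (-0.34) and *Rps6kb1* (-0.20) had the smallest p in F1.

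Of the 17 genes in the role of FSH receptor coupling, 12 were positive in F3. This role holds steps up to cAMP, steps after it, and arrestins and kinases that restrain the receptor. The adenylyl cyclases *Adcy7* (0.59, adjusted p = 0.105, edgeR) and *Adcy9* (0.72, adjusted p = 0.106, edgeR) had the smallest p, and their F3 groups did not overlap. *Adcy7* was at 41.7, 50.1 and 52.2 CPM in F3 control and 74.9, 68.7 and 78.9 CPM in F3 *thia*. In F1 the genes of this role lay between -0.22 (*Prkar2b*) and 0.15, with *Gnas* at 0.15. None of their F1 groups were apart, beside 15.1% of all genes. DESeq2 called 4 of the 17 in F3, beside 14.9% of all genes with an adjusted p.

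**Figure D4:**
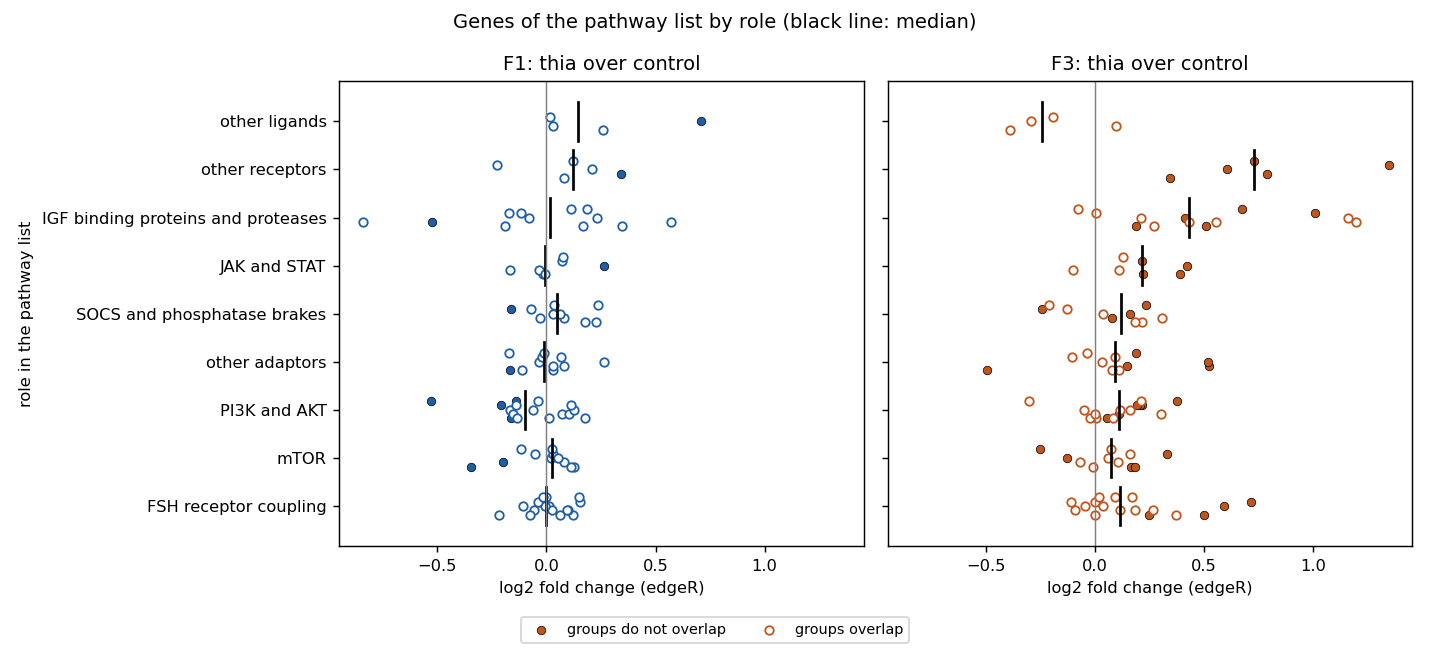
Log2 fold change of *thia* over control (x axis) for the tested genes of the pathway list by role (y axis), in F1 and F3. Filled points are genes whose *thia* and control pools do not overlap, open points genes whose pools overlap, and black lines the medians. The median of the other receptors lies at 0.73 in F3 and 0.12 in F1, and that of the FSH receptor coupling genes at 0.11 in F3.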

How the data were processed

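RNA was measured in 12 pools of embryonic testis, 3 for each of F1 control, F1 *thia*, F3 control and F3 *thia*, taken from the titles of the samples. The authors aligned stranded read pairs to mm10 with HISAT2 (2.1.0 in the submitters' processing notes) and deposited raw counts per gene made with FeatureCounts on the UCSC refGene annotation. The counting options are not given in the sources used here. Symbols were placed with GENCODE M21, and 0 rows named no gene. The members and the lists of pathway and marker genes were chosen with earlier results of these data known.

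Counts were fitted in R 4.3.3 with edgeR 4.0.16 (TMM, filterByExpr with a minimum count of 10, quasi-likelihood test, Benjamini-Hochberg adjustment) within each generation, at the FDR of the study, 0.15 in F1 and 0.1 in F3. The difference of the effects and of the control groups came from 1 fit of 12 libraries at 0.1. The standard error was derived from the F statistic. DESeq2 1.42.0, size factors, upper quartile scaling, other filters, an FDR of 0.05, a replicate block, offsets for length and GC content (loess, span 0.3) and leaving out each library were alternatives. log2 CPM used a prior count of 2. The fits were tested on simulated data. P-values set a difference against the spread between pools, and the upper level given for *Fshb* covers counting error only.

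Named are the members, the 2 genes with the smallest p in each role and generation of the pathway list, its ligands, 3 genes most like each of *Prlr*, *Ghr*, *Fshr* and *Igf1*, and defining markers. Some genes that this rule names are not reported here.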

Additional observations from a re-analysis of the deposited data

Results flagged for a closer look

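For 4 genes of the pathway list the *thia* pools were all below the control pools in F1 and all above them in F3. These genes were picked by that order, so the differences below are a description and nothing is read from their tests. The share of all genes with such an order is not given here. *Stc2*, a secreted inhibitor of the IGF binding protein protease PAPP-A, was at 12.4, 8.89 and 10.5 CPM in F1 control and 6.99, 8.22 and 6.73 CPM in F1 *thia*, and at 3.90, 5.02 and 5.58 CPM in F3 control and 6.88, 5.70 and 7.26 CPM in F3 *thia*. The difference of its log2 fold changes (F3 minus F1) was 0.95, with an adjusted p of 0.248 (edgeR). DESeq2 called it at an adjusted p of 0.0279, beside 4.74% of all genes with an adjusted p. *Rictor*, the scaffold of mTOR complex 2, had a difference of 0.53, and *Gsk3b*, a kinase that AKT inhibits, of 0.43, both with an adjusted p of 0.254 (edgeR). *Pik3ca*, a catalytic subunit of PI3K named after its values were seen, was at 80.5, 85.4 and 90.5 CPM in F1 control and 76.0, 74.8 and 76.6 CPM in F1 *thia*, and at 61.4, 65.6 and 65.3 CPM in F3 control and 73.1, 65.9 and 65.9 CPM in F3 *thia*. Its difference was 0.23, with an adjusted p of 0.356 (edgeR). None of the 4 differences passed the FDR of 0.1 with edgeR. All 4 genes were called lower in F3 control than in F1 control, by -1.09 for *Stc2*, -0.69 for *Rictor*, -0.52 for *Gsk3b* and -0.38 for *Pik3ca* on the log2 scale. Between the control groups 42.3% of all genes were called, in either direction.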

How the results depend on the processing

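Under the 16 alternatives the F3 log2 fold changes of the 8 members kept their sign, from 0.96 to 1.38 for *Prlr*, 0.40 to 0.92 for *Fshr*, 0.23 to 0.55 for *Igf1r*, 0.33 to 0.59 for *Insr*, 0.12 to 0.35 for *Igf1*, 0.01 to 0.22 for *Irs1*, 0.04 to 0.26 for *Irs2* and -0.19 to -0.01 for *Ghr*, whereas in F1 6 members changed sign under some alternative. Members called in F3 were 0 in the reported fit, 4 with DESeq2, 1 with upper quartile scaling, 1 with no filter, 1 with at least 10 counts in every library, 3 in one fit of 12 libraries and 0 to 3 with 1 library left out, the 3 without F3 *thia* replicate 2. Pathway genes called in F3 were 21, 5, 9, 5 and 18 under the same settings and 0 to 11 with 1 library left out, and in F1 they were 1 with DESeq2, 2 with no filter and 0 to 1 (*Pik3r3*, without control replicate 1) with 1 library left out. Over all genes in F1, where 2 were called, the counts were 193 with DESeq2, 243 with no filter, 0 in one fit of 12 libraries, 12 with length offsets, 4 with length offsets and the replicate block, and 0 (control replicate 2) to 20 (control replicate 1) with 1 library left out. In F3, where 0 were called and 3906 had an unadjusted p under 0.05, they were 2262 with DESeq2, 520 with upper quartile scaling, 569 with no filter, 333 with 10 counts in every library, 1936 in one fit, 14 with GC offsets and 0 to 1294 with 1 library left out, the highest without *thia* replicate 2. For the difference of the effects, where 1 was called, DESeq2 gave 638, GC offsets 2, length offsets 1 and the replicate block 0. Length offsets with the replicate block gave 0, and 0 to 4 came with 1 library left out, the highest without F3 *thia* replicate 2. Between the control groups the calls of *Prlr* and *Insr* were lost at an FDR of 0.05, without F1 control replicate 3 and without F3 control replicate 1, and that of *Prlr* without F3 control replicate 3. The causes were not tested. Same-numbered pools had correlations of -0.42 to 0.23 in F3 and -0.03 to 0.02 in F1, and not every pool correlated best with its own number. With 3 pools in a group, such correlations cannot show whether the replicate numbers pair the pools. The replicate block left 3 genes in F1, 0 in F3 and 0 members in either.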
